A study of Drosophila melanogaster with 21 samples.

Results

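The RNA exosome is the conserved complex that degrades and trims RNA from its 3′ end. Its core is a ring of proteins that no longer cut RNA in animals, topped by a cap of RNA-binding subunits, and the cutting is done by the attached nucleases Dis3 and Rrp6. Helicases feed RNA into the ring: Mtr4 in the nucleus and, in the cytoplasm, the SKI complex, whose helicase is encoded in the fly by tst (twister). In mRNA turnover the cytoplasmic exosome acts on transcripts whose poly(A) tail has been removed, a step carried out mainly by the CCR4-NOT complex.

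The mRNAs of 10 genes were followed: the cap subunits Rrp4, Rrp40 and Csl4, the ring subunits Rrp42, Rrp46, Ski6 and Mtr3, the nuclease subunits Rrp6 and Dis3, and the helicase gene tst. They were taken by gene name from 2 tables of 17555 genes each, and all 10 were present in both tables and were tested in each of the 5 comparisons. Only 1 of the 10 is a helicase gene, and Mtr4 and the ring subunit Rrp45 are described with the other genes of the pathway. By the coordinates in the tables (dm6), which equal those of the Ensembl annotation for all 10, 3 genes lie on chromosome arm 2L, 2 on 2R (Rrp4 and Rrp42), 1 on 3L and 4 on 3R. On 2L, Rrp40 spans bases 1728732 to 1729762, Csl4 spans 11122574 to 11123567 and Ski6 spans 13221397 to 13222429. Mtr3 spans 19912405 to 19913715 on 3L. On 3R, Rrp46 spans 10413301 to 10414242, Rrp6 spans 14882498 to 14886246, tst spans 23768399 to 23772859 and Dis3 spans 24333433 to 24337248.

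The measurements come from DL1, a hemocyte-derived Drosophila melanogaster cell line, in 7 groups of 3 samples that the labels call biological replicates. In the RNAi experiment wild-type DL1 cells took up 20 µg of dsRNA from the medium in a bath of 60 min, directed against Pum, Not1 or Pop2, or against the bacterial LacZ gene as the non-targeting control, and were harvested after 48 h. In the knockout experiment the parental wild-type line (WT) was set beside Pum KO1 and Pum KO2, each 1 clonal isolate in which the Pumilio gene was knocked out, so the spread within a knockout group holds no differences between isolates. Pumilio (Pum) binds mRNAs, represses them and recruits CCR4-NOT, Not1 is the scaffold of CCR4-NOT and Pop2 is one of its deadenylases. Poly(A)-selected RNA was sequenced by ClickSeq, in which azido-nucleotides end the cDNA and a click reaction attaches the adapter. The study asked how loss of Pum, Not1 or Pop2 changes mRNA levels.

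The deposited tables give the mean normalised read count of each group. The reads of each single library were worked out again from these means, and the 3 libraries of a group are called A, B and C from the largest to the smallest size factor, since the sources used here do not give the replicate number of each. Reads in the genes so resolved numbered 1372068 to 6854645 per library, and these genes held 49.7% to 64.7% of the normalised counts of a group. The 10 genes together had 377 to 5511 reads per library. Library C of LacZ RNAi and library C of Not1 RNAi stood apart. Across genes LacZ RNAi library C correlated with the others of its group at 0.897 and 0.899, against 0.985 between those, and Not1 RNAi library C correlated at 0.921 and 0.922, against 0.994. In the other 5 groups the lowest correlation was 0.985. Ribosomal protein genes lay 1.64 (log2) above the other libraries of the group in LacZ RNAi library C and 1.34 above in Not1 RNAi library C. Of the 10 genes, 9 lay above the mean of the other libraries of the group in LacZ RNAi library C, with a median of 0.32 (log2) over the 10. In Not1 RNAi library C 5 of the 10 did so. Test results of the 10 genes that these libraries change are therefore given with and without these 2 libraries. Depletion of each target was seen in the authors' deposited table: pum fell to 543 from 1755, Not1 to 1748 from 16830 and Pop2 to 28.7 from 576 normalised counts. In the authors' deposited table of the knockout experiment pum mRNA was 3029 in WT, 1036 in Pum KO1 and 2122 in Pum KO2, so the mRNA was still detected in both isolates. Of 12 hemocyte markers, 6 were at 100 or more normalised counts in both LacZ RNAi and WT, among them the blood-cell factor srp (4358 and 4904), while lz was listed at 0 in LacZ RNAi.

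Levels of different genes are compared only per kilobase of gene length. In the authors' deposited table the per-kilobase mean in WT was highest for Rrp40 (343), followed by tst (183), Mtr3 (182), Rrp6 (153) and Csl4 (138). Rrp4 (103) and Rrp46 (102) were lower and lay close together, and Dis3 (60.8), Rrp42 (48.5) and Ski6 (33.9) were lowest. Under LacZ RNAi the authors' deposited table again had Ski6 (47.1), Dis3 (51.0) and Rrp42 (62.5) at the bottom, and Mtr3 (173) and tst (158) at the top. The place of Mtr3 rested on LacZ RNAi library C: over libraries A and B it was at 129 per kilobase, below tst (154) and Rrp40 (149). The place of Rrp4 rested on it as well. Rrp4 was at 86.7 over all libraries and at 49.0 over libraries A and B, below Dis3 (50.5) and Rrp42 (56.2). The 2 tables were normalised separately, so a level in one is not compared with a level in the other. The reverse transcription primer named in the protocol carries a run of T, and the tables do not show where along a gene the reads fell. The effect of this on a value per kilobase was not tested. Rrp40 also shares 362 of its 1031 exon bases with the gene Eno on the other strand. The part of shared reads in the level of Rrp40 was not tested.

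In the Pum knockout isolates most of the exosome mRNAs were higher than in WT. In Pum KO1 tst alone was not called, and in Pum KO2 tst, Rrp40 and Mtr3 were not. The authors' deposited table called 9 of the 10 genes higher in Pum KO1 (adjusted p below 0.05 in their DESeq2 test over all genes) and none lower, against 22.9% of all 10156 tested genes called higher and 25.5% called lower. For Pum KO2 that table called 7 of the 10 higher and none lower, against 21.3% higher and 23.5% lower of 9925. The median log2 fold change of the 10 was 0.78 in Pum KO1 and 0.59 in Pum KO2 by the authors' deposited table, where the medians over all tested genes were -0.068 and -0.039. Both comparisons use the same WT libraries. All 3 knockout libraries lay above all 3 WT libraries for 9 of the 10 genes in Pum KO1 (26.0% of 9759 genes did so) and for 8 of the 10 in Pum KO2 (26.3% of 9648 genes).

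Csl4, an RNA-binding cap subunit, had the largest fold change of the 10 in both isolates. It stood at 139, 114 and 137 normalised counts in WT libraries A, B and C, at 321, 331 and 215 in Pum KO1 and at 251, 269 and 268 in Pum KO2. Every knockout library was above every WT library, and library C of Pum KO1 was the lowest of the 6. The rise was 2.24-fold in Pum KO1 (log2 1.16 ± 0.16 (SE), adjusted p = 4.31e-12) and 2.02-fold in Pum KO2 (log2 1.02 ± 0.16 (SE), adjusted p = 3.83e-09) by the authors' deposited table. The cap subunit Rrp4, also RNA-binding, read 109, 113 and 131 in WT, 221, 243 and 181 in Pum KO1 and 181, 172 and 207 in Pum KO2, again with no overlap. Its log2 fold changes in the authors' deposited table were 0.89 ± 0.16 (SE) (adjusted p = 1.08e-07) and 0.67 ± 0.16 (SE) (adjusted p = 0.000123).

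The third cap subunit, Rrp40, was called in Pum KO1 and not in Pum KO2. It was at 322, 408 and 332 in WT and 485, 521 and 428 in Pum KO1, without overlap, but at 367, 405 and 352 in Pum KO2, where the groups overlapped. The authors' deposited table gave 0.43 ± 0.12 (SE) (log2, adjusted p = 0.000602) for Pum KO1 and 0.081 ± 0.12 (SE) (adjusted p = 0.626) for Pum KO2. The difference between these fold changes, computed from the authors' deposited table, was 0.35 ± 0.17 (SE) with an adjusted p of 0.26 over all genes. limma on the reconstructed reads put Pum KO1 above Pum KO2 by 0.35 ± 0.10 (SE) with an adjusted p of 0.0118, in a contrast in which 23.8% of 7143 genes were called. Rrp40 shares 362 of its 1031 exon bases with Eno, the gene of the glycolytic enzyme enolase, on the other strand, and the sources used here do not say whether counting used strand. Eno itself was lower in Pum KO1 (log2 -0.87) and higher in Pum KO2 (log2 0.29) by the authors' deposited table, and the part of shared reads in the values of Rrp40 was not tested.

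The ring subunits moved by different amounts. Ski6, the fly counterpart of yeast Rrp41, had the lowest counts of the family, with 34.4, 28.5 and 36.9 in WT, 65.3, 71.5 and 79.9 in Pum KO1 and 64.1, 69.1 and 55.2 in Pum KO2. Both isolates were above WT without overlap, and in the authors' deposited table the log2 fold changes were 1.12 ± 0.25 (SE) and 0.93 ± 0.26 (SE) (adjusted p = 3.4e-05 and 0.00109). Rrp42 was at 49.5, 41.7 and 51.6 in WT, 90.0, 93.5 and 88.4 in Pum KO1 and 81.7, 77.9 and 77.7 in Pum KO2. Rrp46 was at 90.3, 77.9 and 82.6 in WT, 161, 169 and 117 in Pum KO1 and 126, 152 and 159 in Pum KO2. Neither gene had a WT library that reached a knockout library. By the authors' deposited table Rrp42 rose by 0.94 and 0.74 (log2, adjusted p = 4.64e-05 and 0.00246) and Rrp46 by 0.84 and 0.80 (adjusted p = 2.06e-05 and 8.96e-05) in Pum KO1 and Pum KO2. Mtr3 changed least among the ring subunits, with 233, 212 and 239 in WT, 283, 319 and 253 in Pum KO1 and 241, 260.0 and 249.9 in Pum KO2. Its libraries did not overlap in either isolate, yet in the authors' deposited table only Pum KO1 passed (log2 0.33 ± 0.13 (SE), adjusted p = 0.02), while Pum KO2 gave 0.14 ± 0.13 (SE) (adjusted p = 0.412). Exons of Mtr3 share 100 of 1253 bases with the splicing factor gene Prp3 on the other strand. Prp3 rose in both isolates (log2 0.42 and 0.27) by the authors' deposited table, and the part of shared reads was not tested.

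Of the nucleases, Rrp6, the mainly nuclear subunit, was at 467, 526 and 487 in WT, 826, 856 and 740.2 in Pum KO1 and 664, 722 and 714 in Pum KO2. The rise was 1.64-fold and 1.42-fold in the authors' deposited table (log2 0.71 ± 0.092 (SE) and 0.50 ± 0.094 (SE), adjusted p = 7.75e-14 and 4.19e-07), with no overlap of libraries. Dis3, which both digests RNA from the 3′ end and cuts it internally, was at 224, 199.6 and 232 in WT, 314, 349.8 and 289.7 in Pum KO1 and 243, 275 and 290.5 in Pum KO2. All knockout libraries were above WT, and the log2 fold changes in the authors' deposited table were 0.55 ± 0.13 (SE) (adjusted p = 5.05e-05) and 0.30 ± 0.13 (SE) (adjusted p = 0.0425). The helicase gene tst read 718, 916 and 739 in WT, 908, 869.9 and 818 in Pum KO1 and 806, 823 and 758 in Pum KO2, with WT library B the highest value of the 9. The groups overlapped in both isolates, and the 95% intervals of the log2 fold change in the authors' deposited table ran from -0.059 to 0.32 in Pum KO1 and from -0.18 to 0.20 in Pum KO2. Exons of tst share 528 of 4332 bases with CG10375 on the other strand, which rose in Pum KO1 (log2 0.48, adjusted p = 0.00157 by the authors' deposited table).

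**Figure D1:**
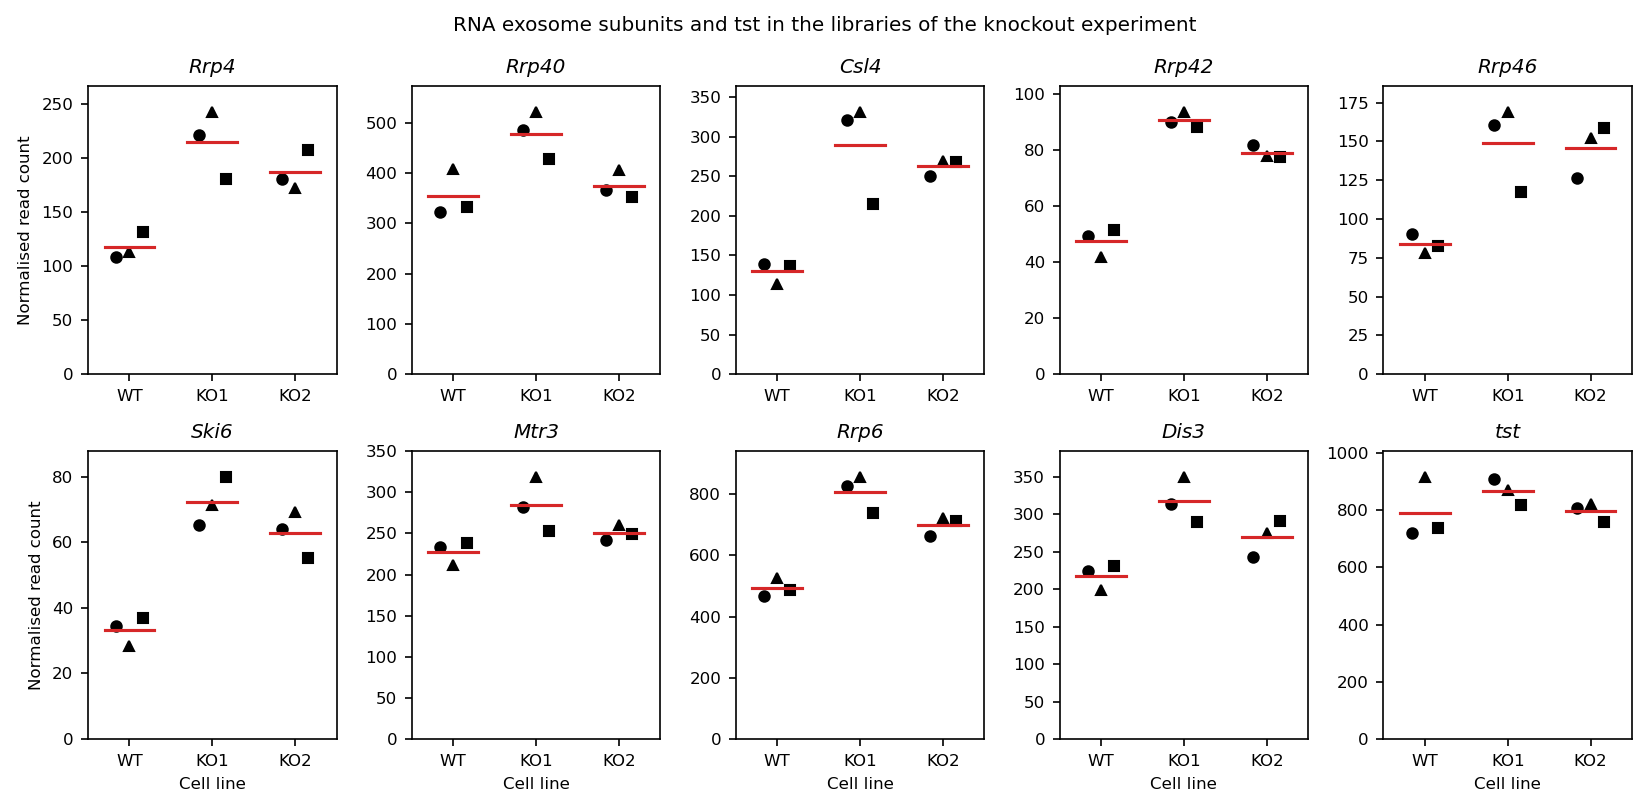
Normalised read counts of the 10 genes (y axis, from 0, 1 panel per gene) in WT, Pum KO1 and Pum KO2. Circles, triangles and squares are libraries A, B and C, and red lines are the authors' group means; for Csl4 the WT libraries reach 139 and the knockout libraries start at 215, while for tst the groups overlap.

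By the sum of the 9 subunits, without tst, the WT libraries stood at 1667, 1721 and 1729 normalised counts, those of Pum KO1 at 2765, 2953 and 2393 and those of Pum KO2 at 2220, 2402 and 2373. In Pum KO1 library C, 1 of the 10 genes was above the mean of the other libraries of its group, the lowest position of any knockout library. The cell type markers also differed from WT in the authors' deposited table, in both directions. The summed hemocyte markers went from 15968 in WT to 19582 in Pum KO1 and 20986 in Pum KO2, a sum carried by srp and by cher (4229, 6472 and 7042). Of the 12 markers 6 were above WT and 6 below in Pum KO1, and 7 were above and 5 below in Pum KO2. Among those below in both isolates were Hml (761 in WT, 68.7 and 202 in the isolates) and He (917, 194 and 257). The crystal-cell factor lz was at 10.4 in WT, 4.02 in Pum KO1 and 919 in Pum KO2. The summed epithelial markers went from 3026 to 1451 and 1219. In each isolate 2 of the 3, Fas3 and crb, were below WT, and 1, shg, was above (409 in WT, 468 and 487 in the isolates). The part of such shifts in the exosome values was not tested, and in a bulk sample fewer cells of a type and less RNA per cell cannot be told apart. Leaving out 1 library at a time in limma ended the call of Mtr3 in Pum KO1 without Pum KO1 library B (log2 0.23, adjusted p = 0.066) and the call of Dis3 in Pum KO2 without WT library B (0.24, adjusted p = 0.0562) or Pum KO2 library C (0.25, adjusted p = 0.071). It added a call of tst in Pum KO1 without WT library B (0.25, adjusted p = 0.00591).

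Between the isolates the fold change in the authors' deposited table was larger in Pum KO1 for each of the 10 genes, by 0.045 (Rrp46) to 0.35 (Rrp40) on the log2 scale. None of these differences passed, against 7.36% of 9925 genes. Rrp40 was the only gene of the 10 below 0.05 without adjustment, with a 95% interval of the difference from 0.026 to 0.68, and the test overstates the error because the isolates share their WT libraries. With limma, Rrp40 passed with all libraries, and leaving out Pum KO1 library C added Dis3 and Rrp6. That fit called 768 genes higher and 890 lower of 7143. Leaving out WT library B added Rrp6, in a fit that called 944 genes higher and 988 lower. Leaving out either of Pum KO1 libraries A and B, or Pum KO2 library C, left no gene of the 10 passing.

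Knockdown of Not1 went the other way: exosome mRNAs were lower than under LacZ RNAi or were not called. The authors' deposited table called 6 of the 10 genes lower (Csl4, Rrp42, Rrp46, Rrp6, Dis3 and tst) and none higher. Of all 9051 tested genes 24.2% were called lower and 25.7% higher. The median of the 10 was -0.59 (log2) by the authors' deposited table, against 0.0075 over all tested genes. By limma the median of the 10 was -0.603 with all libraries and -0.509 without the 2 libraries that stand apart. All 3 Not1 RNAi libraries lay below all 3 LacZ RNAi libraries for these 6 genes, as for 24.1% of 8829 genes. Markers of other cell types moved as well in the authors' deposited table. The summed epithelial markers (shg, crb and Fas3) were at 1286 under LacZ RNAi, 6836 under Not1 RNAi and 3519 under Pop2 RNAi, with all 3 above the control in both. Of the 12 hemocyte markers 5 were above and 7 below the control under Not1 RNAi, and 4 above and 8 below under Pop2 RNAi. The phagocytic receptor gene eater was below in both (799 under LacZ RNAi, 137 under Not1 RNAi and 145 under Pop2 RNAi). In the same order, drpr was above in both (608, 3220 and 1325). The summed hemocyte markers were at 8536 under LacZ RNAi, 11441 under Not1 RNAi and 8116 under Pop2 RNAi. The part of these shifts in the exosome values was not tested.

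Csl4 was at 121, 117 and 163 in LacZ RNAi libraries A, B and C and at 59.9, 68.8 and 28.8 in Not1 RNAi. The 2 libraries that stand apart were the highest and the lowest of the 6, but the groups did not overlap. In the authors' deposited table Csl4 fell 2.28-fold (log2 -1.19 ± 0.27 (SE), adjusted p = 3.3e-05). Without those 2 libraries limma gave -0.88 (adjusted p = 0.000145), against -1.41 with all libraries. The ring subunit Rrp42 was at 52.2, 58.0 and 73.8 in LacZ RNAi and 36.4, 39.8 and 12.4 in Not1 RNAi, where library C rests on 3 reads. Its fall in the authors' deposited table (log2 -0.84 ± 0.33 (SE), adjusted p = 0.0224) was -1.18 by limma with all libraries and -0.52 (adjusted p = 0.043) without the 2. Rrp46 was at 61.1, 65.7 and 73.8 in LacZ RNAi and 38.6, 38.1 and 28.8 in Not1 RNAi, and fell by 0.84 on the log2 scale (adjusted p = 0.0049) by the authors' deposited table. Library C of Not1 RNAi holds 7 reads of Rrp46, and limma without the 2 libraries gave -0.71 (adjusted p = 0.00453).

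The nucleases and the helicase were measured with more reads. Rrp6 was at 418, 401 and 475 in LacZ RNAi and 289, 291 and 334 in Not1 RNAi, Dis3 at 179, 183 and 187 and 96.2, 97.8 and 136, and tst at 636, 699.7 and 720.2 and 449, 405 and 453. None of the 3 genes overlapped between the groups. The log2 fold changes in the authors' deposited table were -0.52 ± 0.13 (SE) for Rrp6 (adjusted p = 0.000245), -0.82 ± 0.18 (SE) for Dis3 (adjusted p = 2.14e-05) and -0.66 ± 0.11 (SE) for tst (adjusted p = 1.26e-08). Without the 2 libraries limma gave -0.50, -0.89 and -0.64, each passing. For Rrp6, 134 of its 3233 exon bases are shared with CG3631 on the other strand, which was also lower under Not1 RNAi (log2 -0.85) by the authors' deposited table.

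The other 4 genes did not pass in the authors' deposited table. Ski6 read 40.4, 37.2 and 60.7 in LacZ RNAi and 34.9, 39.0 and 20.6 in Not1 RNAi (library C on 5 reads). Rrp40 read 180.3, 127 and 128 and 167, 146 and 152, and Mtr3 read 166, 159 and 328 and 190.2, 201 and 268. These groups overlapped, and the fold changes in the authors' deposited table were -0.38 ± 0.32 (SE), 0.087 ± 0.21 (SE) and 0.011 ± 0.28 (SE) on the log2 scale. Eno, the overlapping neighbour of Rrp40, was lower under both Not1 RNAi (log2 -2.20) and Pop2 RNAi (log2 -1.67) by the authors' deposited table. Rrp4 read 61.1, 50.4 and 184 in LacZ RNAi and 98.5, 86.2 and 119 in Not1 RNAi. This comparison rested on LacZ RNAi library C: the authors' deposited table gave 0.057 ± 0.42 (SE) (adjusted p = 0.924), whereas limma without the 2 libraries called Rrp4 higher under Not1 RNAi (0.72, adjusted p = 0.00349). In that fit 7 of the 10 genes were called, 6 lower and 1 higher, against 71.3% of 6861 genes called in either direction. Without LacZ RNAi library C alone, Mtr3 was also called higher (0.42, adjusted p = 0.0433) and Rrp4 stood at 0.85 (adjusted p = 0.00637).

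**Figure D2:**
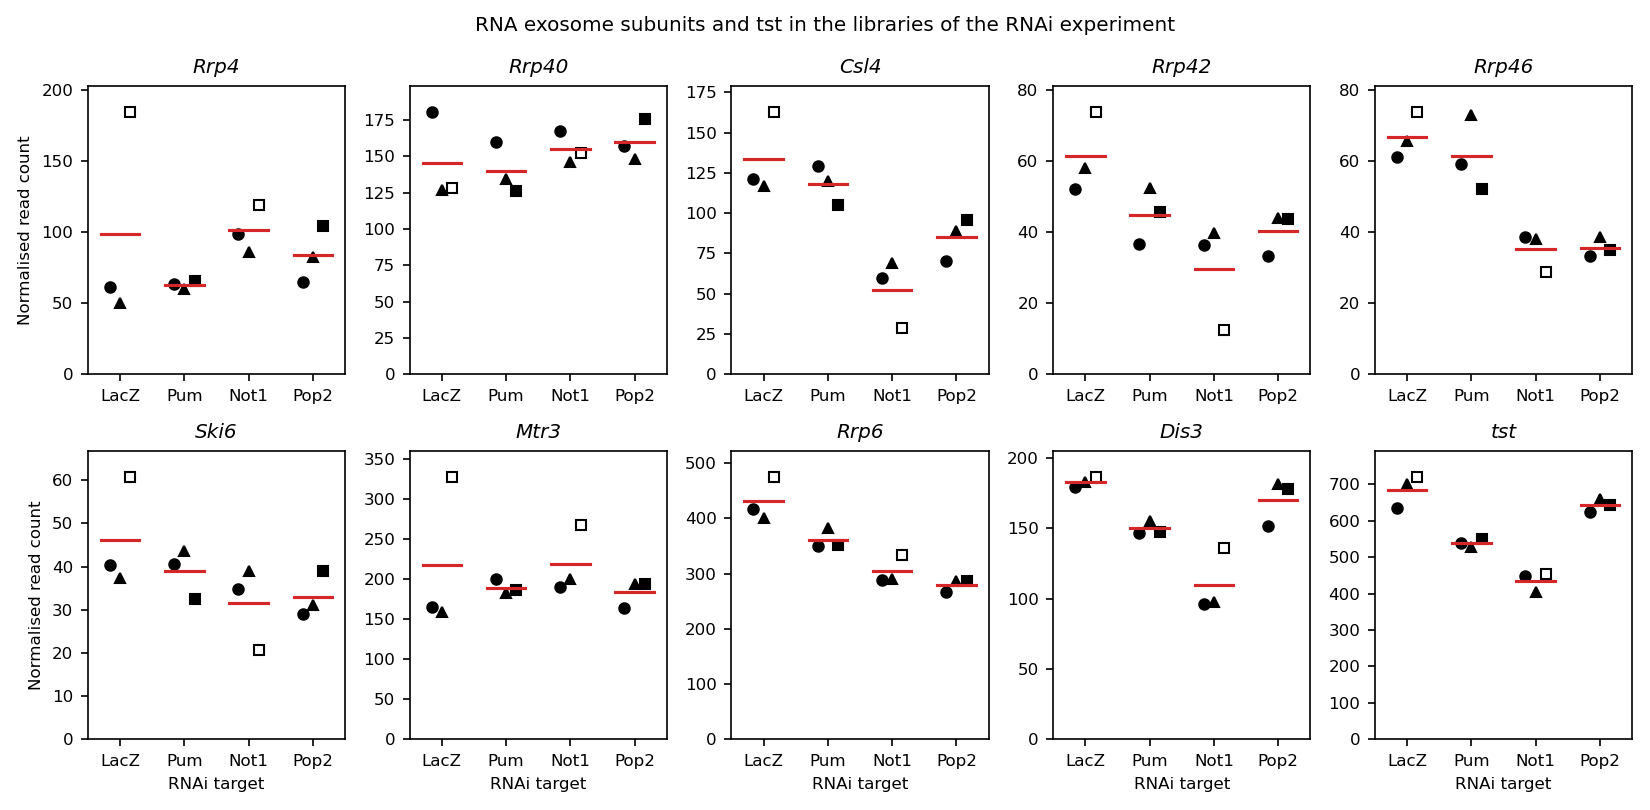
Normalised read counts of the 10 genes (y axis, from 0, 1 panel per gene) under RNAi against LacZ, Pum, Not1 and Pop2. Circles, triangles and squares are libraries A, B and C, red lines are the authors' group means and open squares mark LacZ RNAi library C and Not1 RNAi library C; for Rrp4 the open square of LacZ lies at 184 against 61.1 and 50.4 in the other LacZ libraries.

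After knockdown of the deadenylase Pop2, the authors' deposited table called 3 of the 10 genes lower (Csl4, Rrp46 and Rrp6) and none higher. Of all 9051 tested genes 20.1% were called lower and 18.8% higher. The median of the 10 was -0.33 (log2), against -0.053 over all tested genes, in the authors' deposited table. By limma the median of the 10 was -0.305 with all libraries and -0.164 without the 2 libraries that stand apart. For 4 of the 10 genes the Pop2 RNAi libraries lay below all LacZ RNAi libraries, as for 24.2% of 8785 genes. The LacZ RNAi libraries are the same as in the comparison with Not1 RNAi.

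Rrp6 was at 267, 286 and 287 in Pop2 RNAi, all below the LacZ RNAi libraries, and the authors' deposited table gave log2 -0.61 ± 0.12 (SE) (adjusted p = 8.14e-06). Rrp46 was at 33.2, 38.7 and 35.1, again without overlap, with log2 -0.89 ± 0.25 (SE) (adjusted p = 0.0018) by the authors' deposited table. limma without the 2 libraries gave -0.55 for Rrp6 and -0.81 for Rrp46, both passing. Csl4 was at 70.5, 88.8 and 95.7, below the lowest LacZ RNAi library at 117. It passed in the authors' deposited table (log2 -0.64 ± 0.25 (SE), adjusted p = 0.0271), did not pass by limma with all libraries (-0.64, adjusted p = 0.0967) and passed without the 2 libraries (-0.49, adjusted p = 0.0097). Among the limma fits that left out 1 library, only the fit without Not1 RNAi library C called Csl4. With total scaling limma did not call it (-0.64, adjusted p = 0.165). Rrp42 was at 33.2, 44.0 and 43.6, also below every LacZ RNAi library, and missed the threshold in the authors' deposited table (log2 -0.59 ± 0.30 (SE), adjusted p = 0.111). The limma fit without Not1 RNAi library C called Rrp42 lower, with 1808 genes called higher and 1677 lower of 6861. Ski6 (29.0, 31.1 and 38.9), Mtr3 (164, 194 and 193), Rrp40 (157, 148 and 175) and Dis3 (152, 181 and 178) overlapped the control. So did tst, at 624, 659.5 and 643, with a 95% interval from -0.29 to 0.11 (log2) by the authors' deposited table. Rrp4 was at 65.0, 82.7 and 104, and limma called it higher (0.56, adjusted p = 0.0114) without the 2 libraries, in a fit that called 64.9% of 6861 genes. The value of the authors' deposited table for Rrp4 was -0.20 ± 0.42 (SE).

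The helicase gene tst separated Not1 RNAi from Pop2 RNAi. Its fold change was lower under Not1 RNAi by 0.57 ± 0.15 (SE, log2; adjusted p = 0.0159), from the 2 fold changes in the authors' deposited table, a test that 1.27% of 9051 genes passed. All 3 Not1 RNAi libraries lay below all 3 Pop2 RNAi libraries. limma on the reconstructed reads gave -0.56 (adjusted p = 0.0242), and -0.59 (adjusted p = 0.00012) without the 2 libraries. Leaving out any of Not1 RNAi libraries A and B, or any Pop2 RNAi library, ended this call in limma. Dis3 differed by -0.72 ± 0.24 (SE, log2) from the authors' deposited table and did not pass (adjusted p = 0.123), but passed by limma with all libraries (-0.64, adjusted p = 0.0416) and without the 2 (-0.80, adjusted p = 7.66e-05). Of 12 limma fits that each left out 1 library of the RNAi experiment, 2 called Dis3, those without LacZ RNAi library C or Not1 RNAi library C. In limma with all libraries 5.49% of 6861 genes passed. For Csl4 the 95% interval of the difference ran from -1.26 to 0.16, and for Rrp6 from -0.26 to 0.45, by the values in the authors' deposited table. The other 6 genes did not pass either.

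After RNAi against Pum, none of the 10 genes passed in the authors' deposited table, where 0.733% of 8596 genes were called in either direction by DESeq2. At an unadjusted p below 0.05 there were 772 genes, 2 of them among the 10 (Rrp6 and tst), and limma with all libraries called 1 gene of 6861 (0.0146%) and none of the 10. All 10 fold changes were below 0 in the authors' deposited table, from -0.065 (Rrp40) to -0.61 (Rrp4), with a median of -0.22 against -0.022 over all tested genes, though Rrp4 and Mtr3 were above 0 by limma without the 2 libraries, Rrp40 was above 0 with scaling by total, and Rrp4, Mtr3, Ski6 and Csl4 were above 0 with limma's library weights. By limma the median of the 10 was -0.235 with all libraries and -0.088 without the 2 libraries. For 3 genes, Rrp6, Dis3 and tst, the Pum RNAi libraries lay below all LacZ RNAi libraries, as for 9.39% of 8298 genes.

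For tst the Pum RNAi libraries read 539.9, 527 and 549, against 636, 699.7 and 720.2 in LacZ RNAi. The log2 fold change in the authors' deposited table was -0.34 ± 0.10 (SE), with p = 0.000808 and adjusted p = 0.079. Without the 2 libraries limma called tst lower (-0.31, adjusted p = 0.0474), the only one of the 10 in a fit that called 8.31% of 6861 genes. Dis3 read 147, 156 and 148 (log2 -0.28 ± 0.16 (SE) in the authors' deposited table, adjusted p = 0.623), and Rrp6 read 349, 383 and 352 (log2 -0.24 ± 0.12 (SE), adjusted p = 0.538). With library weights, an alternative chosen after the data were seen that gave Not1 RNAi library C the lowest weight (0.0594), limma called both Dis3 (-0.26) and tst (-0.27) lower, against 27.3% of 6861 genes called. Rrp4 read 63.5, 59.7 and 65.9, between the LacZ RNAi libraries, and its direction rested on LacZ RNAi library C: limma without the 2 libraries gave 0.18 in place of -0.39. Mtr3 read 199.9, 182 and 186, and its direction changed in the same way, from -0.11 to 0.22, without passing. The remaining genes overlapped the control, with Pum RNAi libraries from 126 to 160.0 for Rrp40, 36.7 to 52.3 for Rrp42, 52.1 to 73.1 for Rrp46, 32.6 to 43.6 for Ski6 and 105 to 129 for Csl4.

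**Figure D3:**
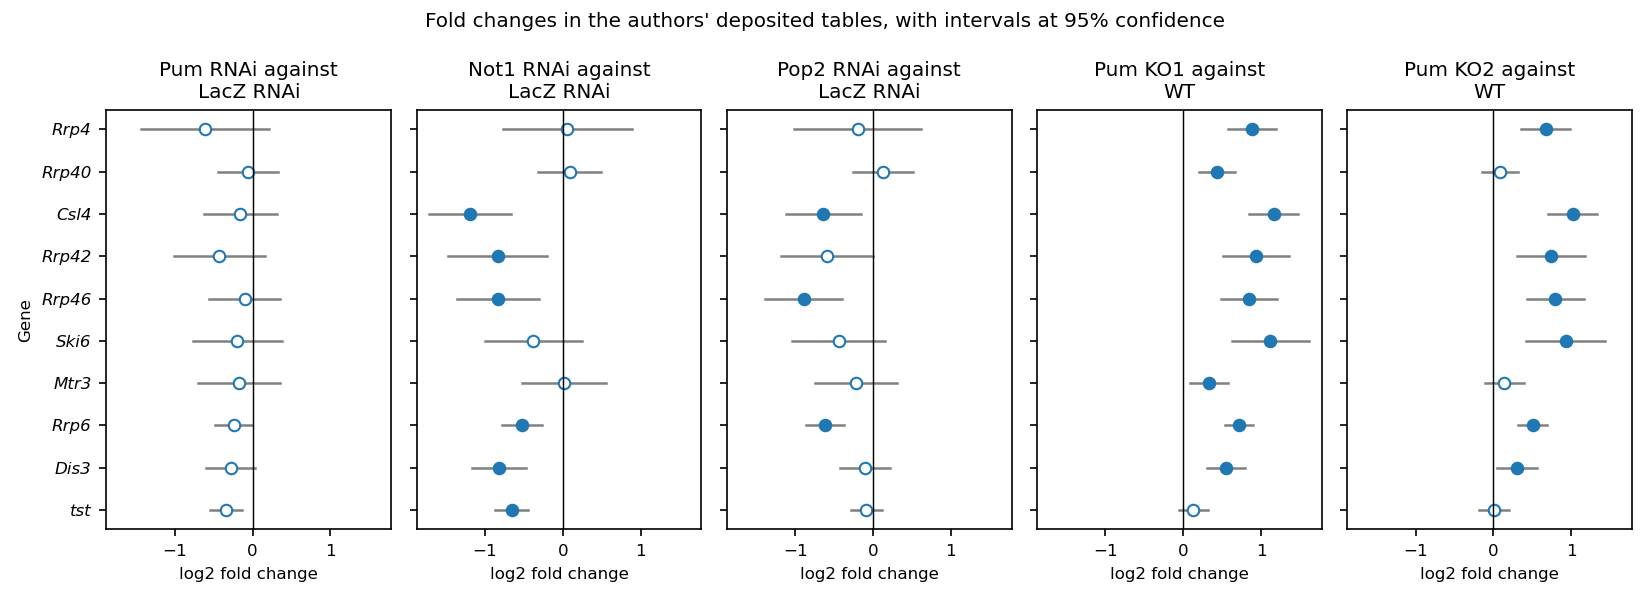
Log2 fold changes (x axis) of the 10 genes (y axis) by the authors' deposited tables for the 5 comparisons. Points are fold changes, lines their 95% intervals and filled points adjusted p below 0.05; none is filled for Pum RNAi, 6 and 3 are filled below 0 for Not1 RNAi and Pop2 RNAi, and 9 and 7 above 0 for Pum KO1 and Pum KO2.

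**Figure D4:**
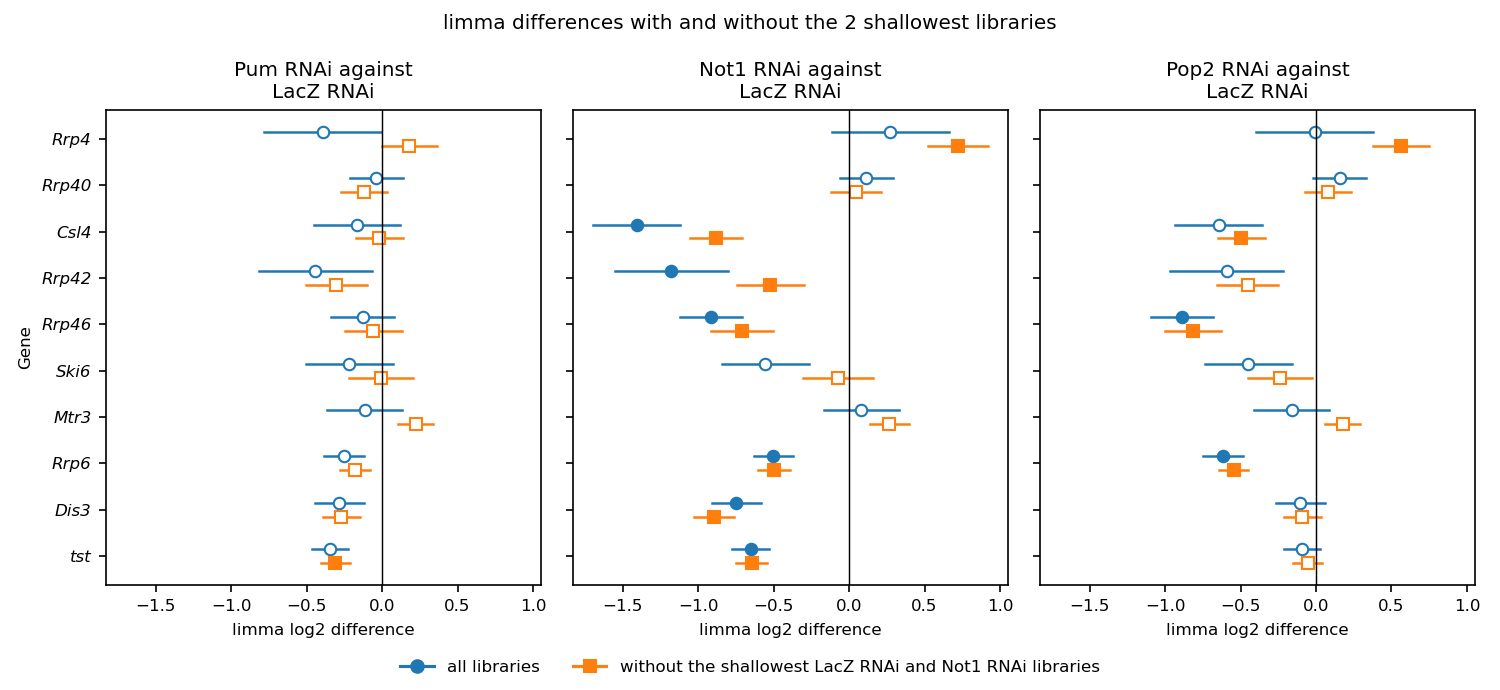
Log2 differences from limma (x axis) of the 10 genes (y axis) in the 3 RNAi comparisons, with all libraries (blue circles) and without LacZ RNAi library C and Not1 RNAi library C (orange squares). Lines span 1 standard error either side and filled points have an adjusted p below 0.05; Rrp4 moves from 0.27 to 0.72 under Not1 RNAi and Csl4 from -1.41 to -0.88.

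Depletion and knockout of Pum gave values of opposite sign for these genes in the authors' deposited tables. After RNAi 10 of 10 fold changes were below 0 and none was called. In the isolates 10 of 10 were above 0, with 9 and 7 called. Over all tested genes 0.733% were called in either direction after RNAi, and 22.9% and 21.3% were called higher in the isolates. For tst in Pum KO2 the value was 0.0069 (log2), and it reached -0.049 in limma with 1 library left out. All values after RNAi share the LacZ RNAi libraries, where library C lay above the mean of the others for 9 of the 10 genes. For Rrp4, Mtr3, Rrp40, Ski6 and Csl4 the sign after RNAi changed under 1 or more alternatives, library weights for Ski6 (0.0047) and Csl4 (0.019). The experiments have separate controls and were normalised separately, and the difference between them was not tested.

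Other genes of the pathway were read from a list of 18, of which 16 were found by name in the tables (Zcchc8 and Rbm7 were not matched). In Pum KO1 the authors' deposited table called 8 of 16 higher and 1 lower, beside 22.9% and 25.5% of all genes, and in Pum KO2 6 higher and none lower, beside 21.3% and 23.5%. Mtr4, the nuclear exosome helicase, rose in both isolates in the authors' deposited table (log2 0.77 ± 0.099 (SE) and 0.74 ± 0.10 (SE)), unlike the cytoplasmic helicase gene tst, which was not called; this contrast between the genes was not tested. Also higher in both isolates, by log2 values in the authors' deposited table for Pum KO1 and Pum KO2, were the cap-associated factor Ars2 (0.61 and 0.47), the cap-binding subunits Cbp20 (0.33 and 0.28) and Cbp80 (0.45 and 0.38), and the ribosome rescue factors pelo (0.58 and 0.39) and HBS1 (0.22 and 0.36). The ring subunit Rrp45 (0.42) and the 3′ exonuclease gene Snp (0.24) were called higher for Pum KO1 in the authors' deposited table. The poly(A) polymerase gene Trf4-2 was called lower there (-1.74, adjusted p = 0.0499 by DESeq2) on means of 7.78 in WT and 2.06 in Pum KO1. These means rest on 7, 5 and 7 reads in WT and 7, 2 and 0 in Pum KO1. In Pum KO2 Trf4-2 had the opposite sign (log2 0.65, mean 12.0) and was not called.

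Under Not1 RNAi the authors' deposited table called 5 of the 15 tested genes of the list higher and 6 lower, beside 25.7% and 24.2% of all genes. The lower ones in the authors' deposited table were Rrp45 (log2 -0.92), the Rrp6 cofactor Rrp47 (-0.91), pelo (-0.99), the exosome-independent 3′ exonuclease Dis3l2 (-1.10), Ars2 (-0.72) and the 3′ exonuclease Nbr (-0.86). The higher ones there, again by the authors' deposited table, were HBS1 (0.64), Cbp20 (1.06), Cbp80 (0.94), Zcchc7 (0.71) and Snp (1.12). Without the 2 libraries limma called the same 11 genes in the same directions, and Trf4-1 higher, against 71.3% of all genes called; Nbr moved from -1.06 to -0.62, Dis3l2 from -1.21 to -1.02 and Cbp20 from 0.98 to 1.40. Mtr4 stood at log2 9.4e-05 ± 0.15 (SE) in the authors' deposited table. Pop2 RNAi gave 4 higher (HBS1 0.64, Cbp20 1.01, Cbp80 0.63 and Snp 0.73) and 4 lower (Rrp47 -0.81, pelo -0.41, Ars2 -0.44 and CG8777 -1.03, which has Ski3 as a RefSeq synonym) by the authors' deposited table, beside 18.8% and 20.1% of all genes. limma with all libraries did not call pelo (-0.40), and without the 2 libraries it called all 8 and also Zcchc7 higher and Dis3l2, Nbr and Rrp45 lower, against 64.9% of all genes called. Trf4-2 was listed at 0 in LacZ RNAi and was not tested there. No gene of the list was called after RNAi against Pum in the authors' deposited table, and limma without the 2 libraries called Trf4-1 and Zcchc7 lower, against 8.31% of all genes called.

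Among 5791 genes with a mean of at least 50 normalised counts in LacZ RNAi and WT, those nearest to the median fold changes of the 10 genes over the 5 comparisons were MrgBP, Aos1, RnpS1, qkr58E-1 and Mapmodulin. Their Euclidean distances, on log2 fold changes in the authors' deposited table, were 0.14, 0.15, 0.20, 0.20 and 0.21. Rrp6 was the nearest of the 10 itself, at 0.31, and Rrp40 the farthest, at 1.03. MrgBP, for example, had -0.19 for Pum RNAi, -0.53 for Not1 RNAi, -0.34 for Pop2 RNAi, 0.73 for Pum KO1 and 0.71 for Pum KO2 in the authors' deposited table.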

How the data were processed

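The submitters' processing notes name fastp 0.14.1, HISAT2 2.1.0, UMI-tools 1.0.1, featureCounts, DESeq2 and the build dm6; settings and strand are not given in the sources used here. The authors deposited signal columns that hold group means of normalised counts, per the file headers, and the same divided by gene length. Log2 fold changes with their standard errors were deposited by the authors, and the deposited p-value columns equal those of a two-sided Wald test on these values (DESeq2). No deposited count table per sample was analysed here. A fitted fold change can depart from the ratio of means: for Csl4 under Not1 RNAi the log2 ratio of means (pseudocount 1) was -1.33.

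Each deposited mean has 15 digits, so the whole-number reads of the 3 libraries behind it were searched for (means up to 8000). Each mean searched had exactly 1 solution, and the search was tested on simulated data. limma 3.58.1 (R 4.3.3) was run on log2(normalised count + 1) for genes with a mean of at least 10 normalised counts, with a trend and Benjamini-Hochberg adjustment. Python 3.11.15 was used otherwise. A gene is called where the adjusted p over all genes is below 0.05. Differences of fold changes were divided by the square root of the sum of both squared standard errors. Intervals are at 95% and cover no more than the fitted error. Lines without a gene (7 per table) held 0.0311% to 0.0742% of normalised counts and were left out. Reads are molecules only as far as molecular identifiers were used by the authors.

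The 10 genes, the pathway list and the markers were chosen with earlier results of these data known. All 10 genes and 3 targets are named; of the pathway list, every gene called in any comparison is named, and likeness takes the 5 genes nearest to the median of the 10. The alternatives were limma, scaling by total, library weights, a threshold of 0.01, no filter on low counts, the ratio of means and leaving out libraries. The total in this scaling is that of the reads in genes resolved in every group, not of all reads of a library. Library weights, for differences of fold changes every limma setting beyond the direct contrast, limma for the pathway genes and per-kilobase levels without LacZ RNAi library C were added after the data were seen.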

Additional observations from a re-analysis of the deposited data

Results flagged for a closer look

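The fold changes of Rrp40 in the isolates differed by 0.35 (log2, Pum KO1 above Pum KO2, adjusted p = 0.0118) in limma's test of the difference, while the test on the authors' deposited table did not pass (adjusted p = 0.26). The limma contrast is an alternative to the test on the deposited values.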

How the results depend on the processing

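Of the 50 fold changes (10 genes, 5 comparisons), 25 were called, and none of these changed direction under 259 alternatives of limma or of the ratio of means. Of these alternatives 11 ended a call, of Csl4 under Pop2 RNAi, Mtr3 in Pum KO1 and Dis3 in Pum KO2. Fits leaving out 1 library were counted there only for libraries of the 2 groups compared. Csl4 under Pop2 RNAi was also not called in limma without Not1 RNAi library A or B, or without any 1 Pum RNAi library. At adjusted p below 0.01 the calls of Rrp42 under Not1 RNAi, Csl4 under Pop2 RNAi, Mtr3 in Pum KO1 and Dis3 in Pum KO2 ended. No paired analysis was possible because the columns carry no replicate numbers. Over all alternatives the counts of called genes ran from 5 to 8 (6) for Not1 RNAi, 2 to 4 (3) for Pop2 RNAi, 8 to 10 (9) for Pum KO1 and 6 to 8 (7) for Pum KO2, with the count as reported in parentheses. Other counts moved as well. Pum RNAi went from 0 to 2 with library weights and to 1 without the 2 shallowest libraries. Genes differing between Not1 RNAi and Pop2 RNAi went from 1 to 0 at adjusted p below 0.01, to 2 by limma, by total scaling and without the 2 shallowest libraries, and to 3 with library weights, and ranged from 0 to 2 when 1 library was left out. Genes differing between Pum KO1 and Pum KO2 went from 0 to 1 by limma and by total scaling, and to 4 with library weights. They ranged from 0 to 3 when 1 library was left out. Over all 6861 genes, limma called 5.49% between Not1 RNAi and Pop2 RNAi. With library weights it called 1526 higher and 1332 lower, and without the 2 shallowest libraries 1154 higher and 1026 lower. Over all 7143 genes, limma called 23.8% between Pum KO1 and Pum KO2, and with library weights 1256 higher and 1234 lower.

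Values not called that changed sign were these, in log2. With library weights they were Rrp4 0.067, Ski6 0.0047, Mtr3 0.21 and Csl4 0.019 under Pum RNAi, Rrp40 -0.074 under Not1 RNAi, and Rrp4 0.43, Rrp40 -0.13, Mtr3 0.17 and tst 0.00088 under Pop2 RNAi. Without the 2 shallowest libraries they were Rrp4 0.18 and Mtr3 0.22 under Pum RNAi and Rrp4 0.56 and Mtr3 0.18 under Pop2 RNAi. With total scaling they were Rrp40 0.048 under Pum RNAi, and Rrp40 -0.086 and Mtr3 -0.12 under Not1 RNAi. Total scaling moved the median of all genes by -0.20 under Not1 RNAi and 0.086 under Pum RNAi, and these 3 values are smaller than that shift. Leaving out 1 library gave ranges of -0.75 to 0.18 (Rrp4), -0.14 to 0.13 (Rrp40) and -0.30 to 0.22 (Mtr3) under Pum RNAi, -0.080 to 0.85 (Rrp4) and -0.10 to 0.42 (Mtr3) under Not1 RNAi, -0.36 to 0.56 (Rrp4) and -0.34 to 0.18 (Mtr3) under Pop2 RNAi, and -0.049 to 0.13 (tst) in Pum KO2. The cause was not tested. Depth limits Rrp42, Ski6, Rrp46 and Csl4 most: Not1 RNAi library C holds 3, 5, 7 and 7 reads of them.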
